A study of Solanum tuberosum with 11 samples.

Results

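The transcripts described here are 224 of the 35091 in the table deposited for dormant potato minitubers. They were chosen because their level was highest in the last condition measured, within the limits given below. They were picked by their levels alone, in all 4 conditions of the table, which it names Controls for DMSO alone and NG 1-Day, NG 5-Days or NG 7-Days for the compound. A member had a level of at least 5 in NG 7-Days, at least 1.5 times that in Controls and at least 2 times that in NG 5-Days. Its control level was under 3 times that in NG 5-Days and under 4 times that in NG 1-Day, its NG 1-Day level was under 1.5 times the control, and the mean of its 4 levels was under 150. Because the choice used every condition, the levels below describe the members and are not evidence for a response, and no test of them is offered as support.

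The labels list 11 sequencing libraries from small greenhouse-grown tubers of Solanum tuberosum, cultivar Atlantic, each made from a thin periderm disc that carried the apical bud. Of these, 3 are from tubers given DMSO, the solvent, without NG and are labelled zero time. The other libraries are from tubers injected with 10 µg of NG, which is 1-(alpha-ethylbenzyl)-3-nitroguanidine, in 5 µl of DMSO, 3 of them taken at day 1, 2 at day 4 and 3 at day 7. No label names a day 5, so the condition that the table calls NG 5-Days is given under that name, and which labelled libraries lie behind it is not known. No DMSO library from a later day is among those listed, so NG and elapsed time cannot be told apart in anything that follows.

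Dormancy is the state in which a tuber bud does not grow even where conditions would allow it, and it ends when the apical bud resumes cell division and sprouts. Nitroguanidines of this kind are known to act as synthetic cytokinins, and cytokinins are the hormones best known for promoting the end of tuber dormancy. A disc of this sort holds bud tissue together with skin and the tissue under it. In such bulk RNA a change in the amount of a cell type and a change in RNA per cell cannot be told apart.

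The authors' deposited table gives 1 combined level per transcript and condition, so no spread between libraries can be shown. Errors below are standard errors of a log2 ratio, worked out from the statistic of the authors' test. The table names no unit for its levels and pairs its identifiers with no gene names. No identifier was found among the 32873 genes of RefSeq's potato list, so members are named by identifier or by position, and no function is given for any of them. Defining markers of bud, skin or tuber tissue could not be looked up for the same reason. Coordinates are those of the deposited table, and the genome build behind them is not given in the sources used. In every condition the members made up a small part of the summed level over all transcripts, 0.592% for Controls, 0.350% at NG 1-Day, 0.416% at NG 5-Days and 1.21% at NG 7-Days.

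Most members lay below the control in the earlier conditions, and all lay above it in NG 7-Days by choice. Their median level in the authors' deposited table was 8.18 in Controls, 4.47 at NG 1-Day, 5.46 at NG 5-Days and 16.7 at NG 7-Days. The ratio of NG 7-Days to the control had a median of 2.06, with quartiles of 1.77 and 2.40 and a highest value of 5.01. The ratio of NG 7-Days to NG 5-Days had a median of 2.91 and reached 8.76. On the log2 scale the medians were 1.04 and 1.54, where all 11549 transcripts in the same range of levels (at least 5 in NG 7-Days, with a mean under 150) had medians of 0.03 and 0.01. A ratio of 2 or more over the control was held by 125 members and one of 3 or more by 12. In NG 7-Days 65 members lay between 5 and 10, 56 between 10 and 20, 57 between 20 and 50, 27 between 50 and 100 and 19 above 100.

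**Figure D1:**
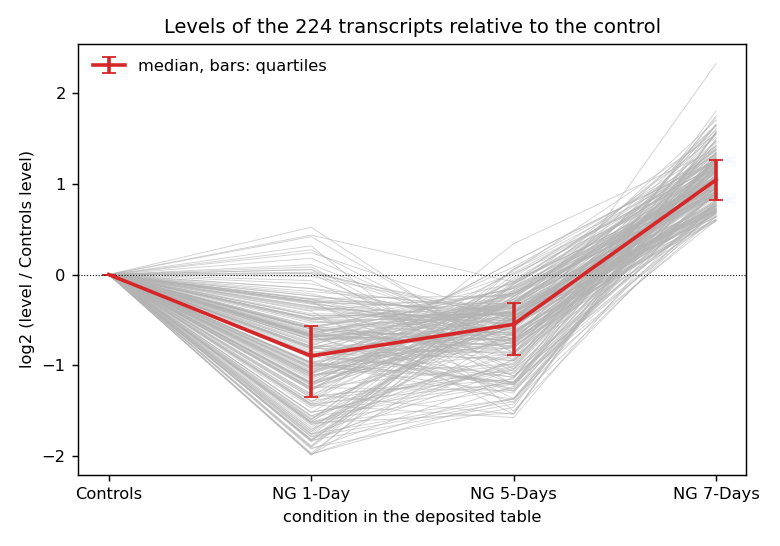
The horizontal axis gives the 4 conditions of the deposited table and the vertical axis the log2 ratio of a transcript's level to its level in Controls. Each grey line is 1 of the 224 members and the red line their median with quartile bars: medians are -0.90 at NG 1-Day, -0.55 at NG 5-Days and 1.04 at NG 7-Days.

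The largest ratio to the control belonged to PGSC0003DMG400021407, at chromosome 2, 41029247 to 41029909. Its level in the authors' deposited table was 1.21 in Controls, 0.589 at NG 1-Day, 0.693 at NG 5-Days and 6.07 at NG 7-Days. Of all members it had the lowest level in Controls and in NG 1-Day, and its NG 7-Days level is close to the minimum for a member. Its log2 ratio of NG 7-Days to the control was 2.33 (standard error 1.16), and it also had the largest ratio of NG 7-Days to NG 5-Days (log2 ratio 3.13, standard error 0.66). The table marks both of these comparisons as not tested for it.

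The member with the next largest ratio to the control was PGSC0003DMG401002177, at chromosome 9, 10624065 to 10627833. It went from 2.08 in Controls to 1.14 at NG 1-Day, 0.892 at NG 5-Days and 7.25 at NG 7-Days in the authors' deposited table. NG 7-Days was the only condition in which it passed the control level. The authors' deposited test, whose adjusted p covers all 6 comparisons together, called it higher in NG 7-Days than in NG 5-Days (log2 ratio 3.02, standard error 0.65, adjusted p = 0.000166) but not than in Controls (log2 ratio 1.80, standard error 1.29, adjusted p = 0.789). A second entry at the same locus, with an identifier that differs in 1 digit, was at 0 in every condition.

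PGSC0003DMG400015219, at chromosome 3, 37451265 to 37452232, had the next largest ratio of NG 7-Days over NG 5-Days. It stood in the authors' deposited table at 3.99 in Controls, 3.01 at NG 1-Day, 1.37 at NG 5-Days and 11.8 at NG 7-Days, a log2 ratio of 3.11 over NG 5-Days (standard error 0.44). Like the chromosome 9 transcript, it was lowest in NG 5-Days. The table marks it as not tested in NG 7-Days against either.

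The most abundant member in NG 7-Days lay at chromosome 5, 7707920 to 7711850. Its level was 125 in Controls, 43.5 at NG 1-Day, 60.9 at NG 5-Days and 295 at NG 7-Days in the authors' deposited table. The authors' deposited test called it lower in NG 1-Day than in Controls (log2 ratio -1.52, standard error 0.47, adjusted p = 0.0224) and higher in NG 7-Days than in NG 5-Days (log2 ratio 2.28, standard error 0.45, adjusted p = 2.55e-05). Against the control in NG 7-Days the authors' deposited test did not call it (log2 ratio 1.24, standard error 0.62, adjusted p = 0.376). The next most abundant, at chromosome 2, 33635081 to 33638124, varied less before the last condition, at 122, 81.2, 103 and 230 in the same order in the authors' deposited table.

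A flat level up to NG 5-Days was rare among the members. Only 1 of the 224 stayed between 0.8 times the control and the reciprocal of 0.8 in both earlier conditions, where 52.8% of transcripts in the same range of levels did. It lies at chromosome 4, 2669331 to 2674142, was singled out by this pattern, and had levels of 7.15, 5.96, 6.08 and 13.4 over the 4 conditions in order per the authors' deposited table. In all, 210 members lay below the control at NG 1-Day, 215 did so at NG 5-Days and 201 at both, and none lay above it in both. The limits of the choice bear on these counts, since a member could lie at most 1.5 times above the control in NG 1-Day and had to lie well below its NG 7-Days level in NG 5-Days. As values the set describes a dip below the control followed by a rise above it, more than a steady level with a late rise.

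A low NG 1-Day level was about as frequent among transcripts that were raised in NG 7-Days but did not belong to the set. In the same range of levels, another 1051 transcripts stood at 1.5 times the control or more in NG 7-Days. Of these, 981 or 93.3% lay below the control in NG 1-Day, against 93.8% of the members, and the median ratio of NG 1-Day to the control was 0.531 against 0.537. Over all non-members in that range 54.5% lay below the control in NG 1-Day, with a median ratio of 0.986. What separates the members from the other raised transcripts is NG 5-Days, which the choice itself used, with a median of 0.683 times the control against 1.98 times. The choice also left out 86 transcripts only because they were too low in NG 1-Day, with a median of 0.129 times the control, and 4 only because they were too high there.

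**Figure D2:**
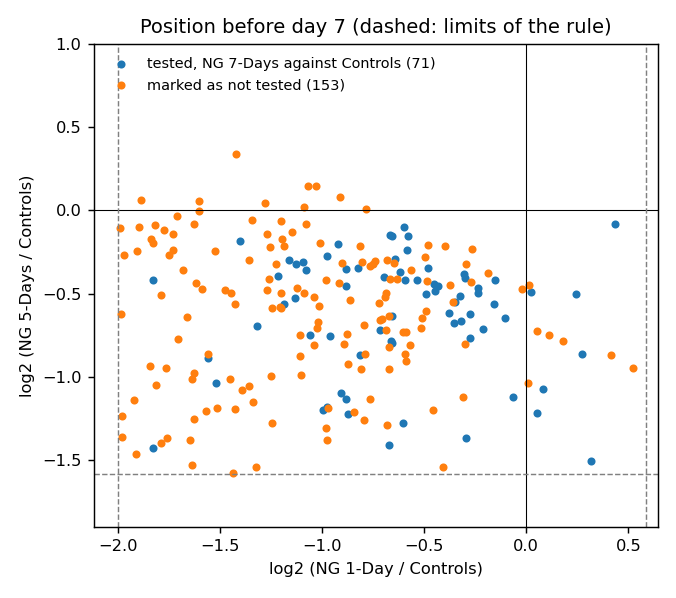
The horizontal axis shows the log2 ratio of NG 1-Day to Controls and the vertical axis that of NG 5-Days to Controls, for each of the 224 members, coloured by whether the table tested NG 7-Days against Controls (71) or not (153). Dashed lines mark the limits of the choice. Most points (201) lie in the lower left, below the control in both conditions.

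Members differed in which of the earlier conditions was lower. In 145 members NG 5-Days lay above NG 1-Day, with median ratios to the control of 0.439 at NG 1-Day, 0.748 at NG 5-Days and 2.21 at NG 7-Days. In the other 79 NG 5-Days lay below NG 1-Day, with median ratios of 0.755, 0.576 and 1.84. By these medians the first kind had partly returned toward the control before its rise, while the second kind was at its lowest just before it. The division itself fixes the direction between NG 1-Day and NG 5-Days, so nothing is read from that direction. For single members the division is less sure. Of 197 tested, the authors' deposited test called a difference between NG 1-Day and NG 5-Days for 36 of the first kind and 7 of the second. Over all transcripts tested, 13.1% were called higher in NG 5-Days and 6.91% lower. Which kind a called member belongs to follows from the division. Both kinds reached a similar median level in NG 7-Days, 16.8 and 16.6.

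Falls from the control in NG 1-Day were called for 11 members in the authors' deposited table. Over all transcripts tested in that comparison 1.03% were called lower, and since the choice limited this ratio nothing is read from the members' count. Only 1 of the 11 calls, that with the lowest adjusted p, remained when this comparison was adjusted alone, and the same 1 at an adjusted p under 0.01, so the other 10 rest on the authors' adjustment over all 6 comparisons together. The lowest adjusted p among the 11 belonged to a transcript at chromosome 11, 39188693 to 39190669, which stood at 32.9 in Controls, 8.34 at NG 1-Day, 14.0 at NG 5-Days and 104 at NG 7-Days (log2 ratio of NG 1-Day to Controls -1.98, standard error 0.53, adjusted p = 0.00495 in the authors' deposited table). A transcript at chromosome 10, 46949002 to 46950128, ran nearly in parallel, at 38.2, 10.1, 17.4 and 116 in the authors' deposited table (NG 1-Day against Controls, log2 ratio -1.92, standard error 0.57, adjusted p = 0.0155). Both had more than 3 times the control level in NG 7-Days, and for both the table marks that comparison as not tested. Others of the 11 were back near the control by NG 5-Days. A transcript at chromosome 6, 39511606 to 39515845, stood at 16.8, 4.51, 15.6 and 38.0 over the 4 conditions in order per the authors' deposited table, and one at chromosome 12, 55418273 to 55421332, at 10.5, 2.64, 9.75 and 23.2. These 4 examples were chosen with their values known.

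In NG 5-Days 2 of the 205 members tested were called lower than the control in the authors' deposited table. Over all transcripts tested 0.826% were, and since the choice limited this ratio too, nothing is read from the members' count. Neither call remained when this comparison was adjusted alone or at an adjusted p under 0.01. Both members are named with their values known. One, at chromosome 11, 33038169 to 33045792, stood at 6.81, 4.27, 2.56 and 11.3 from Controls to NG 7-Days (NG 5-Days against Controls, log2 ratio -1.41, standard error 0.44, adjusted p = 0.0252 in the authors' deposited table). It had the lowest adjusted p, 2.21e-12, of the 71 members tested for NG 7-Days against NG 5-Days. The other 153 are marked as not tested there and are not ranked. The other, at chromosome 12, 47221776 to 47223929, stood at 14.4, 5.33, 4.84 and 29.8 (NG 5-Days against Controls, log2 ratio -1.58, standard error 0.52, adjusted p = 0.0455 in the authors' deposited table).

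Between NG 1-Day and NG 5-Days, 36 members were called higher and 7 lower in the authors' deposited table, among 197 tested. The shares over all transcripts tested were 13.1% and 6.91%. At an adjusted p under 0.01 the 7 lower calls became 4. All 36 belong to the kind with the lower NG 1-Day level and all 7 to the kind with the lower NG 5-Days level, since that ratio is what divides them. The most abundant of the 11 members called lower in NG 1-Day after the one on chromosome 5 named above also lies on that chromosome, at 4809204 to 4811052. It went from 68.8 in Controls to 26.0 at NG 1-Day, 60.5 at NG 5-Days and 145 at NG 7-Days in the authors' deposited table. It was called at each step but the comparisons of Controls with NG 5-Days and NG 7-Days, with adjusted p of 0.0322 for the fall, 2.66e-08 for the return and 0.00476 for the last rise.

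The last step was called for 64 of the 71 members tested for NG 7-Days against NG 5-Days in the authors' deposited table. Of all transcripts tested there 2.52% were called higher. For NG 7-Days against NG 1-Day 45 of 68 members tested were called higher, where 7.44% of all transcripts were, and 41 members were called in both. The choice used these levels, so the counts show how the authors' errors relate to its limits and nothing more. Against Controls, none of the 71 members tested in NG 7-Days was called by the authors' deposited test, and of all 19964 transcripts tested 0.015% were called, all of them lower, and 0% higher. Of the 71, 3 had an unadjusted p under 0.05, and the lowest adjusted p was 0.350. In the same range of levels, the median standard error of a level on the log2 scale was 0.46 in Controls and 0.20 at NG 1-Day. It was 0.11 at NG 5-Days and 0.26 at NG 7-Days, so the control had the widest. The part of these errors in the unlike counts of calls was not tested.

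**Figure D3:**
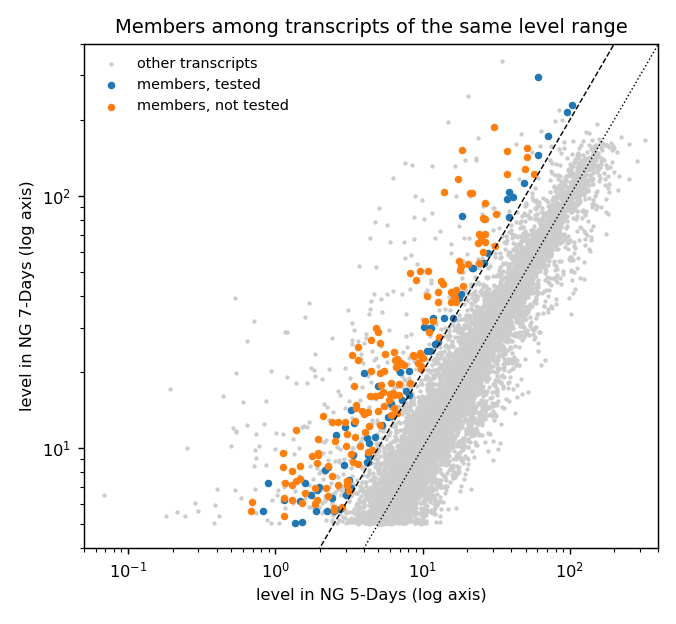
The level in NG 5-Days is on the horizontal axis and that in NG 7-Days on the vertical axis, both logarithmic, for the 224 members (coloured) and the other transcripts with a NG 7-Days level of at least 5 and a mean level below 150 (grey, 11325 in all; those at 0 or under the axis minimum in NG 5-Days are not drawn). The dotted line marks equal levels and the dashed line a ratio of 2, above which all members lie by choice.

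Most members were never tested in NG 7-Days. The authors' deposited table marks 153 of the 224 (68.3%) as not tested for NG 7-Days against Controls, but 5.48% of transcripts in the same range of levels. For NG 1-Day and NG 5-Days against Controls it marks 18 and 19 members in this way. For 130 members the mark stands in every comparison that includes NG 7-Days and in no other, a pattern held by 3.25% of the transcripts in that range. For these members the mark goes with the NG 7-Days condition. The rule behind it is not stated in the sources used.

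The mark became more frequent with the size of the change. Among all transcripts with a NG 7-Days level of at least 5 and a mean under 150, 0.112% of those between 0.8 times the control and the reciprocal of 0.8 were marked as not tested in the authors' deposited table. The share was 15.7% between 1.5 and 2 times the control, 73.1% between 2 and 3 times and 92.7% at 3 times or more. On the falling side it was 64.2% below 0.5 times the control. Among transcripts at 5 or more in the earlier conditions, the share at 3 times the control or more was 6.29% for NG 5-Days and 67.7% for NG 1-Day, the latter over 31 transcripts. Within the members it was 43.4% between 1.5 and 2 times the control, 88.5% between 2 and 3 times and 83.3% of the 12 at 3 times or more. The comparison of NG 7-Days with the control was thus tested less often for members at 2 times the control or more than for those under it.

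**Figure D4:**
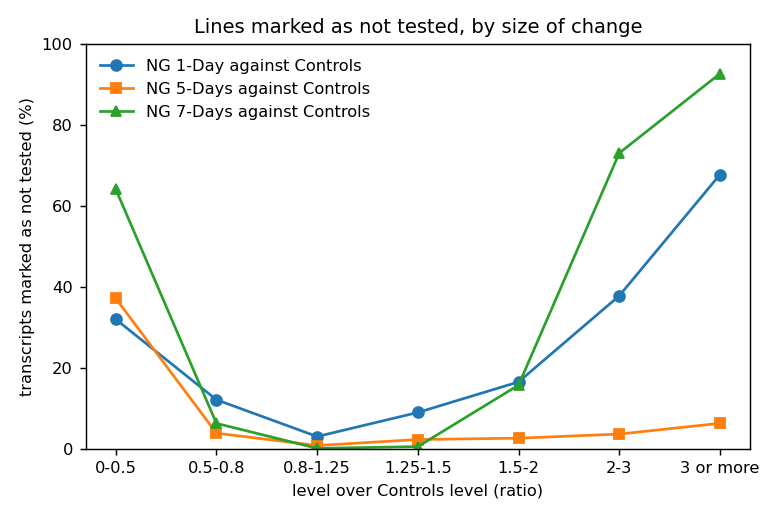
The horizontal axis bins transcripts by the ratio of their level to Controls and the vertical axis gives the percentage that the deposited table marks as not tested in that comparison, for transcripts at 5 or more in the NG condition compared and a mean level below 150. For NG 7-Days the share climbs from 0.112% in the bin around a ratio of 1 to 92.7% at 3 or more, and for NG 5-Days it is 6.29% there.

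Members marked as not tested differed in level from those that were tested. Their median ratio of NG 7-Days to Controls was 2.25, against 1.69 for the 71 tested members, and their median ratio of NG 1-Day to Controls 0.473, against 0.650. Lines with the mark still carry a p-value in the authors' deposited table. For NG 7-Days against Controls 40 of the 153 have one under 0.05, the lowest 0.00364, for the chromosome 11 transcript at 39188693. Adjusted together with the tested lines, 217 members would be called higher in NG 7-Days than in NG 5-Days (3.85% of all transcripts) and 191 than in NG 1-Day (8.09%), but 0 than in Controls (0.0156%). The choice used these levels and the reason for the mark is not known, so nothing is read from these counts. The standard error of NG 7-Days alone had a median of 0.26 on the log2 scale for the members not tested, against 0.30 for the tested members. Their median levels in NG 7-Days also differed, at 18.1 and 14.2 in that order. How much of this error is spread between libraries is not known. Whether the libraries behind NG 7-Days differed from each other in these transcripts was not tested, since the table holds no value per library.

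Members had short loci and wide errors in the control, neither of which the choice used directly. The median locus, from first to last base including introns, was 2.42 kb long (quartiles 1.35 and 4.27), against 4.26 kb (2.37 and 6.46) for non-members in the same range of levels. Loci under 1 kb made up 16.1% of members and 8.42% of those non-members, and loci of 5 kb or more 18.8% and 40.3%. The other 1051 transcripts raised in NG 7-Days were also short, with a median of 2.77 kb, and 16.7% of them were under 1 kb. The median standard error of the control level was 0.59 on the log2 scale in the members, 0.64 in the other raised transcripts and 0.46 in all non-members of that range. Members also stood lower in the control, at a median level of 8.18 against 15.3, and the part of level or of error in the difference of length was not tested.

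The members were spread over all 12 chromosomes. They made up 1.94% of transcripts in the same range of levels, from 1.29% on chromosome 4 (13 members) to 2.56% on chromosome 2 (29 members). In the order of all listed transcripts 11 pairs of members were direct neighbours. Within 50 kb of another member lay 40 members, in 17 groups. The largest group had 6 members on chromosome 9, and groups of 3 lay on chromosomes 5 and 12.

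The chromosome 9 group spans 10624065 to 10672481 and begins with PGSC0003DMG401002177, described above. The summed level of its 6 members was 123 in Controls, 89.5 at NG 1-Day, 78.1 at NG 5-Days and 214 at NG 7-Days in the authors' deposited table. All 6 were lowest in NG 5-Days, with ratios of NG 7-Days to NG 5-Days from 2.30 to 8.13. The most abundant, at 10669047 to 10670371, had levels of 75.1, 57.7, 49.0 and 113 in the authors' deposited table. The authors' deposited test called it higher in NG 7-Days than in NG 5-Days (log2 ratio 1.20, standard error 0.27, adjusted p = 0.000405). It is also the member closest to the limit of 1.5 times the control, at 1.503.

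Transcripts around these members, which the choice had not taken, mostly had their highest level in NG 7-Days as well. The stretch holds 7 other listed transcripts, of which 1 is at 0 throughout. That one is listed at the same locus as the first member of the group, and their identifiers differ in 1 digit. The remaining 6 were all highest in NG 7-Days, where 24.2% of all transcripts above 0 were. Some of the 6 were low even there, at 0.232 (10642342 to 10643387), 1.52 (10639633 to 10640798) and 3.01 (10658953 to 10660077). Any level above 0 counts here, whereas the count for the other groups below takes 1 or more in every condition. The most abundant of the 6, at 10664139 to 10665417, stood at 59.3 in Controls, 12.5 at NG 1-Day, 42.8 at NG 5-Days and 160 at NG 7-Days in the authors' deposited table. It missed the set only by its low NG 1-Day level. Another, at 10650324 to 10651721, barely passed the control, with a NG 7-Days level of 14.2 and a ratio of 1.10 in the authors' deposited table. Its identifier differs in 1 digit from that of the member at 10648159 to 10649874, and whether they are parts of 1 gene was not tested. Of the 10 listed transcripts on each side of the stretch 13 were above 0. In NG 7-Days 10 of these 13 were highest, at levels there from 0.562 to 132. The highest of those, at 10677269 to 10678645, stood at 40.6, 5.67, 11.6 and 132 in the authors' deposited table. Whether these neighbours are similar copies that share reads is not known here, and the stretch was picked out because it holds the most members.

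**Figure D5:**
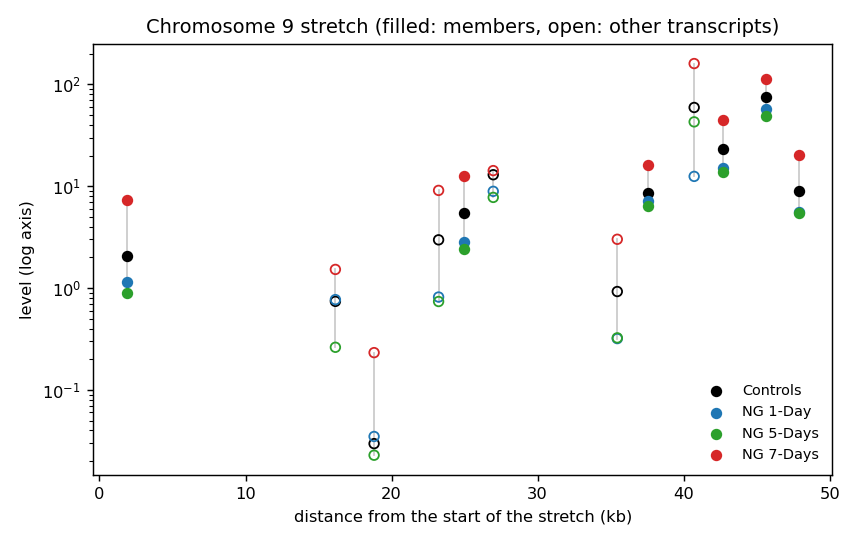
Levels on a logarithmic axis are plotted against distance in kb from the start of the chromosome 9 stretch, for the 12 listed transcripts above 0 (filled, 6 members; open, 6 others), with 1 colour per condition. The NG 7-Days point is the highest for each of the 12 transcripts.

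Members of the smaller groups lay beside each other with like or unlike levels. On chromosome 5 the members at 39939124 to 39941358 and 39951351 to 39957714 stood at 23.2 and 23.8 in NG 7-Days, from 8.74 and 9.97 in Controls, in the authors' deposited table. Their identifiers, listed as those of separate genes, differ in 1 digit, and whether they are parts of 1 gene was not tested. On chromosome 1 a member of 0.397 kb at 63271693 to 63272090 lies directly before one at 63272206 to 63279131. Their control levels, 7.54 and 1.89 in the authors' deposited table, were unlike. The log2 ratio of NG 7-Days to Controls had a standard error of 1.12 for the first and of 30.1 for the second, the widest of all members, so the size of the second ratio is not known. Counting only transcripts at 5 or more in NG 7-Days, the longest unbroken run had 4 members, on chromosome 3 between 5274041 and 5363953, and 3 others had 3. In the authors' deposited table the 4 on chromosome 3 had, in order of position, NG 7-Days levels of 5.60, 8.08, 10.2 and 32.8, where Controls had 2.20, 2.96, 4.66 and 17.8. The identifiers of the first 2 of these 4 also differ in 1 digit, and whether they are parts of 1 gene was not tested. The 3 on chromosome 12, between 49796798 and 49849917, had ratios of NG 7-Days to Controls of 2.08, 2.06 and 1.99 by the levels of the authors' deposited table, the most abundant of them at 127 and the next at 63.3 in NG 7-Days. Levels within each of these 2 runs differed several fold, and the ratios of NG 7-Days to the control lay between 1.84 and 2.73 in both. The choice required a ratio of at least 1.5, and the quartiles over all 224 members were 1.77 and 2.40. Nothing about neighbours is therefore read from these ratios. Across the 16 groups outside the chromosome 9 stretch, 5 of 15 transcripts between members at 1 or more in every condition were highest in NG 7-Days, where this held for 19.9% of all non-members at such levels.

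Over the whole set the nearest neighbours that were not members moved little in their median, but a larger share of them was raised than of all non-members. There were 232 such transcripts at 1 or more in every condition, with a median log2 ratio of NG 7-Days to Controls of 0.07 (quartiles -0.12 and 0.37), against 0.01 for all non-members at such levels. A ratio of 1.5 or more was held by 36 of them (15.5%), against 7.51% of all non-members. At 2 times NG 5-Days or more stood 10 of them (4.31%), against 2.54%. Both counts include neighbours in the chromosome 9 stretch.

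The nearest transcripts on either side of the limits differed little. Just inside the limit of 2 times NG 5-Days lay a transcript at chromosome 1, 64256962 to 64259593, with a ratio of 2.02 (8.04 to 16.3 in the authors' deposited table). Just outside lay one at chromosome 9, 28290338 to 28291544, with 1.999 (34.7 to 69.4). For the limit of 1.5 times the control the nearest transcript outside had a ratio of 1.492. Missing only the NG 5-Days limit were 750 transcripts, with a median NG 5-Days level of 2.10 times the control and a median ratio of NG 7-Days to NG 5-Days of 0.832, well short of 2. Missing only the minimum level of 5 were 372.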

How the data were processed

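RNA of potato tuber discs was sequenced in 11 libraries, 3 or 2 per condition per the labels. The only file used, the authors' deposited table, has the layout of a Cuffdiff result per the file headers. It holds the authors' level of each transcript in 4 conditions (whose unit is not named and which is never negative), a fold change and test statistic (a score), and the deposited p-value and q-value for 6 comparisons. Aligner, versions, genome build and depth are not given in the sources used, so no depth-based interval was computed, and the precision of a level is unknown beyond the authors' errors. The table used holds no value per library, so the levels carry no SD or n.

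Levels were read once per transcript. Of 35091 transcripts 5 marked as too abundant and 8 whose lines disagree were left out, none of them a member. The deposited q-values equal a Benjamini-Hochberg adjustment over all 118862 tested lines to within 3.32e-06, and 0.05 was used as the threshold. A standard error per condition was solved from the log2 ratio and statistic of the 6 comparisons, lines marked as not tested included, for 22729 transcripts and every member. Ratios were computed from the levels with no pseudocount. The choice of members, the recovery of errors and the adjustment were tested on simulated data. No test across members and no resampling was run. "The same range of levels" means a NG 7-Days level of at least 5 and a mean under 150.

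Named members are those with the highest ratio to Controls, ratio to NG 5-Days and NG 7-Days level, 2 each, those nearest the limits and those of the longest runs of neighbours. All other transcripts named were chosen with their values known, whether or not this is said beside them. Identifiers are printed for at most 2 per comparison and are the gene identifiers of the deposited table. Members and comparisons were chosen with earlier results of these data known. Alternatives changed each limit, the pseudocount, the scaling and the adjustment. Python 3.11.15 with numpy 2.4.6, pandas 2.3.3 and SciPy 1.17.1 was used.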

Additional observations from a re-analysis of the deposited data

How the results depend on the processing

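The number of members follows the limits that define them, and 224 became 125 with 2 times the control, 350 with 1.5 times NG 5-Days, 109 with 3 times NG 5-Days and 378 with a minimum level of 1. The other limits, the pseudocounts of 0.1 and 1 and, chosen after seeing the data, a rescaling to equal medians and the removal of either lower limit gave 159 to 310. With the lines that the authors marked as not tested included in the adjustment, members called higher in NG 7-Days went from 64 to 217 against NG 5-Days (3.85% of all transcripts) and from 45 to 191 against NG 1-Day (8.09%), while against Controls there were still 0. These counts follow levels that the choice used and set aside a mark whose reason is not known. The median log2 ratio to Controls was 0.94 to 1.04 and that to NG 5-Days 1.40 to 1.54 over the pseudocounts and the rescaling. For the earlier comparisons, tried after seeing the data, members called lower in NG 1-Day than in Controls went from 11 to 1, and those lower in NG 5-Days than in Controls from 2 to 0, both when the comparison was adjusted alone and at an adjusted p under 0.01, and those called to fall between NG 1-Day and NG 5-Days from 7 to 4 at an adjusted p under 0.01. The other alternatives for calls, for locus length and for neighbours stayed within 1.5 times. No paired analysis was possible because the table holds no value per library, which also means that leaving out a library was not possible.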
